A study of Mus musculus with 12 samples.

Results

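Laminins, nidogens, perlecan, agrin and the integrin receptors that bind to them and to other matrix proteins were examined across 4 cell types of the gastrulating mouse embryo. The genes were chosen by symbol: the laminin alpha, beta and gamma chains, every integrin alpha and beta subunit, Nid1, Nid2, Hspg2 and Agrn. This gave 41 of the 38924 genes counted in each library. RNA had been sequenced from 12 libraries of sorted cells, with 3 replicates for each of 4 types, all from the line Foxa2Cre:Rosa26-YFP at E7.25. In this line Cre is driven by Foxa2, a transcription factor of endoderm and midline cells, so that yellow fluorescent protein (YFP) marks cells with a history of Foxa2 expression rather than current expression. The types were cardiac mesoderm in a YFP+ fraction (ventricular, per the labels) and a YFP- fraction (non-ventricular, per the labels), endoderm sorted as EPCAM+, and hematopoietic mesoderm sorted as KDR+. The labels name no treatment, sex or litter and do not say that replicates came from separate embryos, so p-values measure only the spread between these libraries.

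A basement membrane is a thin sheet of matrix under epithelia and around muscle, vessels and other tissues. Its core is a laminin network, built from trimers of an alpha, a beta and a gamma chain. Nidogens and the heparan sulfate proteoglycans perlecan and agrin link this network to a second network of type IV collagen. The alpha chain sets which receptors a laminin binds: integrins, which are dimers of an alpha and a beta subunit, and dystroglycan. At gastrulation the epiblast and the endoderm rest on a shared basement membrane, which is breached where mesoderm cells leave the primitive streak. The migrating mesoderm then moves through a matrix rich in fibronectin.

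Gene counts ranged from 4472800 to 7888631 per library, and 3 counts, taken as the detection floor, corresponded to 0.380 to 0.671 CPM, the usual scaling of counts to a common library size. The members took 0.178% to 0.301% of the gene counts. The summed level of 8 endoderm genes was 1333 to 1730 CPM in endoderm and 59.8 to 134 CPM in the 6 cardiac libraries, where 5 to 8 of them were detected in a library and Foxa2 itself had 0 counts in all 3 YFP- libraries and 5.92 CPM at most in the YFP+ libraries. Epcam measured 204 to 240 CPM in endoderm and at most 68.9 CPM elsewhere, and Kdr 443.5 to 965 CPM in the mesodermal libraries and at most 16.4 CPM in endoderm. The endoderm libraries also held markers of neighboring cell types. In them 5 epiblast and ectoderm genes, all detected, summed to 511 to 556 CPM, against 66.9 to 299 CPM in the cardiac libraries and 2.65 to 6.24 CPM in hematopoietic mesoderm, where Sox2 and Pou3f1 had 0 counts. A list of 8 visceral endoderm genes, all detected, summed to 537 to 2169 CPM in endoderm and to at most 14.9 CPM elsewhere. For 5 parietal endoderm genes, all detected, the sums were 107 to 141 CPM in endoderm and at most 75.5 CPM elsewhere. The part of these markers in the levels of genes high in endoderm was not tested. Hematopoietic replicate 3 stood apart. Its endoderm genes summed to 225 CPM against 30.8 and 42.3 CPM in replicates 1 and 2, its 10 cardiac genes to 2012 against 973 and 1181 CPM, and its 12 hematopoietic and endothelial genes to 1549 against 2413 and 2627 CPM. The 10 cardiac genes include Kdr, on which hematopoietic mesoderm was sorted, at 965 CPM in replicate 3 against 665 and 700 CPM. Pdgfra, another of them, measured 48.3 CPM in replicate 3 against 1.93 and 31.5 CPM, and 204 to 387 CPM in the cardiac libraries. Of the 84 tests of members against hematopoietic mesoderm, leaving out hematopoietic replicate 3 added 5 calls and removed 1. The share of all genes called in that fit is not given here, so this does not set members apart from other genes. No called value changed direction. Ptprc, the pan-leukocyte marker, had 0 counts in all 12 libraries. It belongs to a list of 7 macrophage and megakaryocyte genes, of which 1 to 4 were detected in a library. Their sums were 1.11 to 41.1 CPM. In such bulk samples, fewer cells of a type and less RNA per cell cannot be told apart.

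Of the 4 member genes that were called in at least 1 pair of types, Lama4, Lama5 and Hspg2 encode parts of the matrix and Itga8 a receptor subunit. Of the 41 members, 28 passed the expression filter among 14170 genes tested. They were tested with edgeR's quasi-likelihood test, two-sided, with Benjamini-Hochberg adjustment over all genes, and a gene was called at an adjusted p under 0.05. Between YFP+ and YFP- cardiac mesoderm 0 members were called, where 0% of all genes were called. At an unadjusted p under 0.05, 3 of the 28 members stood in that comparison, where 7.49% of all genes did. DESeq2 and limma voom also called 0 members there, and 1.62% and 0% of all genes. YFP+ cardiac mesoderm against endoderm gave 2 called members, Lama4 higher and Lama5 lower, against 1.54% of all genes (0.953% higher and 0.586% lower). YFP- cardiac mesoderm against endoderm gave 1, Lama4, which was higher, against 1.31% of all genes (0.706% higher). YFP+ cardiac against hematopoietic mesoderm gave 1, Itga8, which was higher, against 1.79% of all genes (1.15% higher). YFP- cardiac against hematopoietic mesoderm gave 0 in edgeR, against 0.593% of all genes. There, 10 members stood at an unadjusted p under 0.05, against 17.4% of all genes, and DESeq2 and limma voom called 5 and 0, against 9.29% and 0.67%. Endoderm against hematopoietic mesoderm gave 3, with Itga8 higher in endoderm and Hspg2 and Lama4 higher in hematopoietic mesoderm, against 5.65% of all genes (3.23% with the higher level in endoderm, 2.42% in the other type).

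The median log2 fold change of the 28 tested members stayed close to that of all genes in most pairs. It was 0.07 for YFP+ minus YFP- cardiac mesoderm, where all genes had 0.03. It was -0.02 and -0.03 for YFP+ and YFP- cardiac mesoderm minus endoderm, where all genes had 0.01 in each. Against hematopoietic mesoderm it was -0.15 for YFP+ and -0.12 for YFP- cardiac mesoderm, with 0.03 and 0.02 over all genes. For endoderm minus hematopoietic mesoderm it was 0.39, with 0.07 over all genes. The number of members whose libraries did not overlap between the types was 3, 14, 13, 10, 10 and 16 in the same order of pairs, and the share of all genes that did so was 12.1%, 30.3%, 29.4%, 14%, 18.6% and 34.3%.

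**Figure D1:**
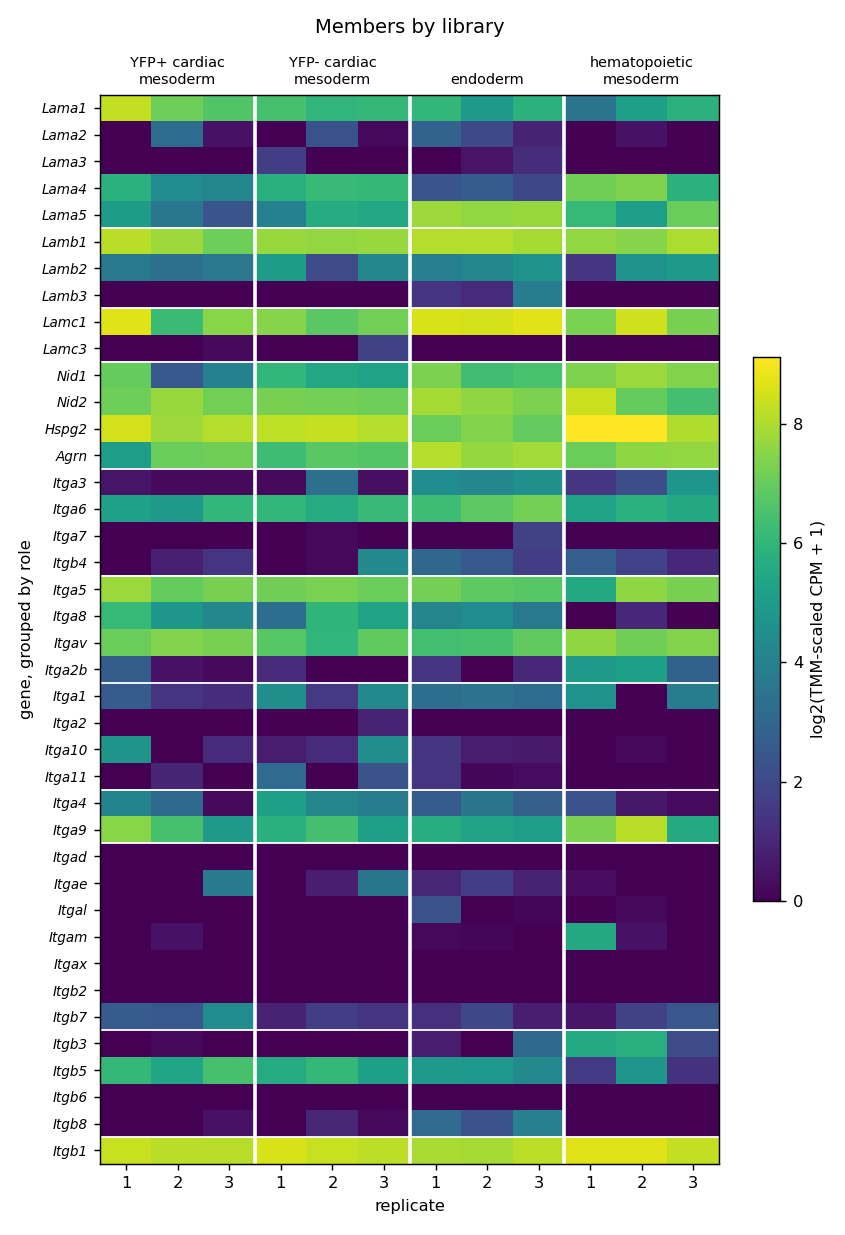
Level of the members, as log2 of CPM plus 1 (color scale), in 12 libraries (columns, 3 replicates for each type); white lines divide the types and the roles of the genes. Lamb1, Lamc1, Hspg2, Nid2, Itga5, Itgav and Itgb1 are bright in every type, Lama1, Lama4 and Lama5 differ between types, and most leukocyte integrins are dark.

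Each of the 3 main laminin alpha chain genes had its highest mean in a different type, and 2 of them, Lama4 and Lama5, were called in at least 1 pair. Levels are given throughout as CPM after trimmed-mean (TMM) scaling of the library sizes, in the order of replicates 1, 2 and 3. Lama1, which encodes the α1 chain of the early embryo's basement membranes (GRCm38 chromosome 17, 67697259 to 67822647, plus strand), measured 308, 137 and 98.3 CPM in YFP+ cardiac mesoderm. It measured 86.3, 63.6 and 65.5 CPM in YFP- cardiac mesoderm, 64.1, 28.7 and 56.3 CPM in endoderm, and 10.4, 34.3 and 56.7 CPM in hematopoietic mesoderm. The lowest YFP+ library thus lay above every library of the other types, and YFP+ replicate 1 was far above its own group. None of these differences passed edgeR's test. The log2 fold change of YFP+ cardiac mesoderm was 2.42 ± 0.605 (SE) over hematopoietic mesoderm with an adjusted p of 0.0642, 1.87 ± 0.592 over endoderm with an adjusted p of 0.130, and 1.34 ± 0.582 over YFP- cardiac mesoderm with an adjusted p of 0.644. Without hematopoietic replicate 3 the first of these reached an adjusted p of 0.0309 in the same test.

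Lama4, the gene of the α4 chain of laminins around vessels and muscle (chromosome 10, 38965515 to 39110188, plus strand), was lowest in endoderm and highest in hematopoietic mesoderm. It measured 54.9, 19.9 and 17.2 CPM in YFP+ cardiac mesoderm, 53.3, 69.6 and 66.6 CPM in YFP- cardiac mesoderm, 4.29, 5.31 and 2.97 CPM in endoderm, and 140, 162 and 56.7 CPM in hematopoietic mesoderm. No endoderm library reached any mesodermal one, while the cardiac groups overlapped with each other. Hematopoietic mesoderm exceeded endoderm 28.5-fold by the ratio of means (log2 fold change for endoderm minus hematopoietic mesoderm -4.83 ± 0.653, adjusted p in edgeR 0.00153), and the call held when any library of either type was left out. YFP- cardiac mesoderm exceeded endoderm 15.1-fold (3.91 ± 0.627, adjusted p in edgeR 0.00672). This call was lost without endoderm replicate 1 (adjusted p 0.0551) or endoderm replicate 3 (0.0644) in edgeR. YFP+ cardiac mesoderm exceeded endoderm 7.32-fold (2.87 ± 0.601, adjusted p in edgeR 0.0317). That call was lost in edgeR without YFP+ replicate 1 (0.119), endoderm replicate 1 (0.173), endoderm replicate 2 (0.125) or endoderm replicate 3 (0.198), and when only the 2 types were fitted (0.0692). All 3 same-numbered pairs had the same direction in each of these comparisons, as they must where the groups do not overlap. The difference between YFP+ cardiac and hematopoietic mesoderm (-1.96 ± 0.574) had an adjusted p of 0.104 in edgeR, and 0.0435 without hematopoietic replicate 3.

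Lama5, which encodes the α5 chain typical of laminins under epithelia (chromosome 2, 180176373 to 180225859, minus strand), was highest in endoderm. It measured 31.8, 10.9 and 4.26 CPM in YFP+ cardiac mesoderm, 15.1, 48.5 and 42.15 CPM in YFP- cardiac mesoderm, 218, 197 and 206 CPM in endoderm, and 67.7, 33.4 and 129 CPM in hematopoietic mesoderm. Every endoderm library exceeded every mesodermal one, and the highest of the mesodermal values came from hematopoietic replicate 3, the library with the higher endoderm markers. The part of those markers in the value was not tested. The epiblast and visceral endoderm genes had their highest sums in the endoderm libraries too (511 to 556 and 537 to 2169 CPM). Endoderm against hematopoietic mesoderm (1.43 ± 0.671) had an adjusted p of 0.225 in edgeR, and 2.04 with an adjusted p of 0.134 without hematopoietic replicate 3. YFP+ cardiac mesoderm was 13.2-fold below endoderm by the ratio of means (log2 fold change -3.73 ± 0.737, adjusted p in edgeR 0.0231). With the replicate number as a block the adjusted p in edgeR was 0.0532. The call was also lost in edgeR without YFP+ replicate 2 (0.0991), YFP+ replicate 3 (0.0567), endoderm replicate 1 (0.0929), endoderm replicate 2 (0.0743) or endoderm replicate 3 (0.0833). YFP- cardiac mesoderm against endoderm (-2.55 ± 0.697) had an adjusted p of 0.107 in edgeR, although its groups did not overlap.

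Lama5 and Hspg2 were called in different pairs. Lama5 was higher in endoderm than in YFP+ cardiac mesoderm, and Hspg2 was lower in endoderm than in hematopoietic mesoderm. RefSeq start sites (build GRCm38.p6) were listed for 26 of the 41 members in 30 windows. Among the called members, only Lama5 and Hspg2 had bases just upstream of a listed start that lie outside annotated exons, and these are shown. The Itga8 window lay within annotated exons and held 1 match to the SOX motif ACAAT. Lama4 had no listed start. Capitals mark GGGCGG on either strand, the core of the GC box bound by SP-family factors, and no capitals overlap another motif searched.
Lama5, chr2:180225860-180226109, minus strand: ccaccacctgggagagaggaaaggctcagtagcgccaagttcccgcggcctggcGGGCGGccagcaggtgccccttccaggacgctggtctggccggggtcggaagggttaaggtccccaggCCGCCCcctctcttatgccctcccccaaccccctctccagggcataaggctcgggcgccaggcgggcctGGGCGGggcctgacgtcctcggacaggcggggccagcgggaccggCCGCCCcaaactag
Hspg2, chr4:137468553-137468768, plus strand: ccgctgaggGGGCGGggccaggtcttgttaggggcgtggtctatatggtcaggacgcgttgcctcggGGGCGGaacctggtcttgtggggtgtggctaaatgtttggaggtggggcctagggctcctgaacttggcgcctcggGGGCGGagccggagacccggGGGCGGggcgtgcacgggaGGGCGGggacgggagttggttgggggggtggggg
Lama5 held 4 and Hspg2 5 such matches in these bases. Over the 250 bases upstream of all 32851 listed starts, 32.7% held at least 1 match, and 13 of the 30 member windows did. Neither sequence held the other 5 motifs searched on either strand. These were AGATAA of GATA factors, present in 9.99% of all such windows. The SOX motif ACAAT was in 27.7% of them. The forkhead motif TGTTTAC was in 3.17%. The ETS motif CCGGAAG was in 6.91%, and the TATA box TATAAA in 12.4%. A match in letters is a description and was not tested as a binding site.

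Set against each other per kilobase of exon, the alpha chains formed a different mix in each type. In YFP+ cardiac mesoderm Lama1 made up 82.7 ± 1.86% (SD, n = 3) of the summed alpha chain level, Lama4 11.0 ± 1.30% and Lama5 5.27 ± 2.02%. In YFP- cardiac mesoderm the shares were 47.1 ± 11.3%, 32.8 ± 2.70% and 19.1 ± 8.90%. The Lama1 share was 81.3% to 84.8% across the YFP+ libraries and 39.0% to 60.0% across the YFP- libraries, so the ranges did not overlap. In endoderm Lama5 made up 76.4 ± 5.52%, Lama1 21.0 ± 5.96% and Lama4 1.48 ± 0.557%. In hematopoietic mesoderm Lama4 made up 50.4 ± 25.2%, Lama5 32.8 ± 18.5% and Lama1 16.8 ± 10.5%, and the Lama4 share ran from 67.4% in the highest library to 21.5% in replicate 3. Shares in a mix depend on each other and were not tested. Lama2, the muscle laminin chain, had a mean share of at most 1.05% in any type, and Lama3, the chain of stratified epithelia, reached 13 counts at most in any library.

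**Figure D2:**
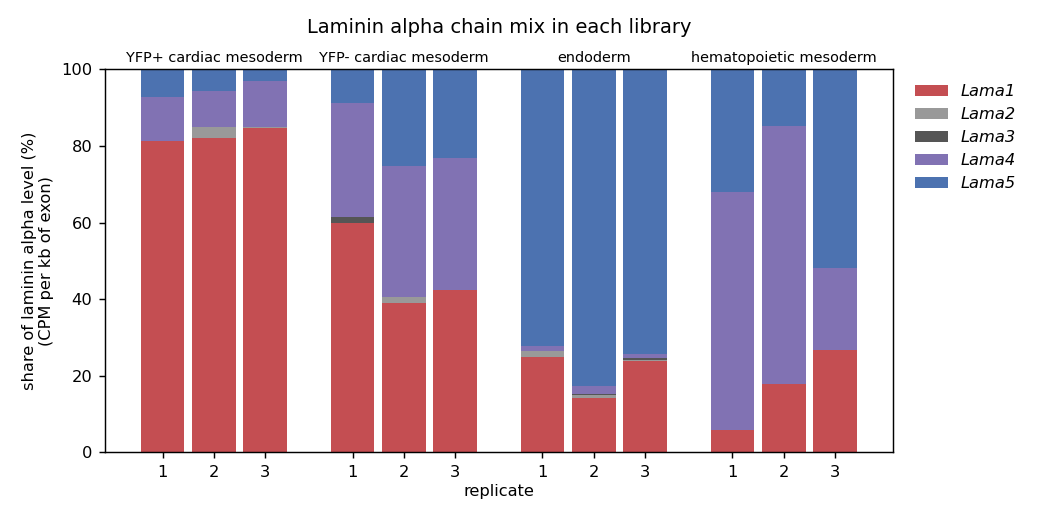
Share of each laminin alpha chain gene in the summed alpha chain level of a library, in percent of CPM per kilobase of exon (vertical axis), for 3 replicates of each type (horizontal axis). Lama1 takes 81.3% to 84.8% of the bar in the YFP+ cardiac libraries, Lama5 takes 72.2% to 82.7% in endoderm, and the mix varies most among the hematopoietic libraries.

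The beta and gamma chains were shared by all types. Lamb1, the β1 chain of most embryonic laminins, measured 289, 220 and 138 CPM in YFP+ cardiac mesoderm, 207, 200 and 209 CPM in YFP- cardiac mesoderm, 272, 276 and 233 CPM in endoderm, and 200, 175 and 253 CPM in hematopoietic mesoderm. The groups overlapped except that all endoderm libraries exceeded the YFP- cardiac ones, and the smallest adjusted p in edgeR was 0.508. Per kilobase Lamb1 made up a mean of 87.1% to 91.8% of the beta chain level in each type. Lamb2, the β2 chain of synapses and kidney filters, measured 11.9, 9.29 and 11.3 CPM in YFP+ cardiac mesoderm, 31.0, 3.36 and 17.7 CPM in YFP- cardiac mesoderm, 14.2, 17.2 and 23.9 CPM in endoderm, and 1.69, 24.1 and 29.0 CPM in hematopoietic mesoderm. Its smallest adjusted p in edgeR was 0.754. Lamb3 was counted only in the endoderm libraries, at 1.59, 1.17 and 13.6 CPM, and did not pass the filter.

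Lamc1, the γ1 chain found in nearly all embryonic laminins (chromosome 1, 153218922 to 153332786, minus strand), measured 402, 73.6 and 178 CPM in YFP+ cardiac mesoderm and 174, 109 and 142 CPM in YFP- cardiac mesoderm. It measured 381, 372 and 418 CPM in endoderm and 155, 352 and 150 CPM in hematopoietic mesoderm. Endoderm was uniformly high, and the YFP+ and hematopoietic groups each held 1 library near the endoderm level. YFP- cardiac mesoderm lay below endoderm in all libraries (-1.46 ± 0.487) with an adjusted p of 0.209 in edgeR. Lamc3 reached 17 counts at most in any library.

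Among the linkers, Hspg2, which encodes the proteoglycan perlecan (chromosome 4, 137468769 to 137570630, plus strand), was lowest in endoderm. It measured 356.5, 218 and 274 CPM in YFP+ cardiac mesoderm, 299, 315 and 273 CPM in YFP- cardiac mesoderm, 128.5, 167 and 121 CPM in endoderm, and 553, 550 and 260 CPM in hematopoietic mesoderm. Every endoderm library lay below every mesodermal library, and hematopoietic replicate 3 lay at the cardiac level, below the other two of its type. Hematopoietic mesoderm exceeded endoderm 3.28-fold (log2 fold change for endoderm minus hematopoietic mesoderm -1.71 ± 0.277, adjusted p in edgeR 0.00482), and the call held under every alternative run, with adjusted p up to 0.0385. YFP- and YFP+ cardiac mesoderm exceeded endoderm by 1.09 ± 0.273 and 1.03 ± 0.273 on the log2 scale, with adjusted p of 0.0781 and 0.0828 in edgeR. Both were called in edgeR with no low-count filter (0.0320 and 0.0471) and with only the 2 types fitted (0.00275 and 0.0323). DESeq2 (0.0215 and 0.0288) and limma voom (0.0014 and 0.0304) also called both. Neither was called with the other scaling, a minimum mean of 5 CPM, the replicate block or any library left out. YFP+ cardiac minus hematopoietic mesoderm was called when hematopoietic replicate 3 was left out (-0.96, adjusted p in edgeR 0.0318), and was -0.68 ± 0.271 with an adjusted p of 0.190 with it.

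Agrn, the gene of the proteoglycan agrin, had its highest mean in endoderm. It measured 32.7, 130.5 and 140.5 CPM in YFP+ cardiac mesoderm, 77.4, 109 and 102 CPM in YFP- cardiac mesoderm, 276.6, 203.5 and 233 CPM in endoderm, and 132, 188 and 199 CPM in hematopoietic mesoderm. Every endoderm library exceeded every mesodermal one, as they did in the sums of the epiblast and visceral endoderm markers. No pair passed edgeR's test on all 12 libraries, where the smallest adjusted p was 0.157, for YFP+ cardiac mesoderm minus endoderm (-1.23 ± 0.421). YFP- cardiac mesoderm minus endoderm (-1.305 ± 0.421) had 0.186 there. Its adjusted p was 0.00282 when edgeR was fitted to only these 2 types and 0.00584 in limma voom. It was not called in DESeq2, with other scaling or filters, with the replicate block or with any library left out.

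Nid1 and Nid2 encode nidogens, which tie laminin to collagen IV. Nid1 measured 123, 4.74 and 15.2 CPM in YFP+ cardiac mesoderm, 64.0, 41.9 and 37.1 CPM in YFP- cardiac mesoderm, 160, 77.9 and 89.6 CPM in endoderm, and 160, 216 and 167 CPM in hematopoietic mesoderm. YFP+ replicate 1 was far above replicates 2 and 3 of its type. YFP+ cardiac mesoderm against hematopoietic mesoderm had a log2 fold change of -1.93 ± 0.827 with an adjusted p of 0.221 in edgeR, and -4.18 with an adjusted p of 0.0112 without YFP+ replicate 1. Against endoderm the values were -1.20 ± 0.811 and 0.568, and -3.45 and 0.0173 without that library. Nid2 measured 137, 210 and 142 CPM in YFP+ cardiac mesoderm, 152, 145 and 136 CPM in YFP- cardiac mesoderm, 237, 192 and 157 CPM in endoderm, and 332, 122 and 82.7 CPM in hematopoietic mesoderm. Its smallest adjusted p in edgeR was 0.773, and the hematopoietic libraries spanned the range of all the others.

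**Figure D3:**
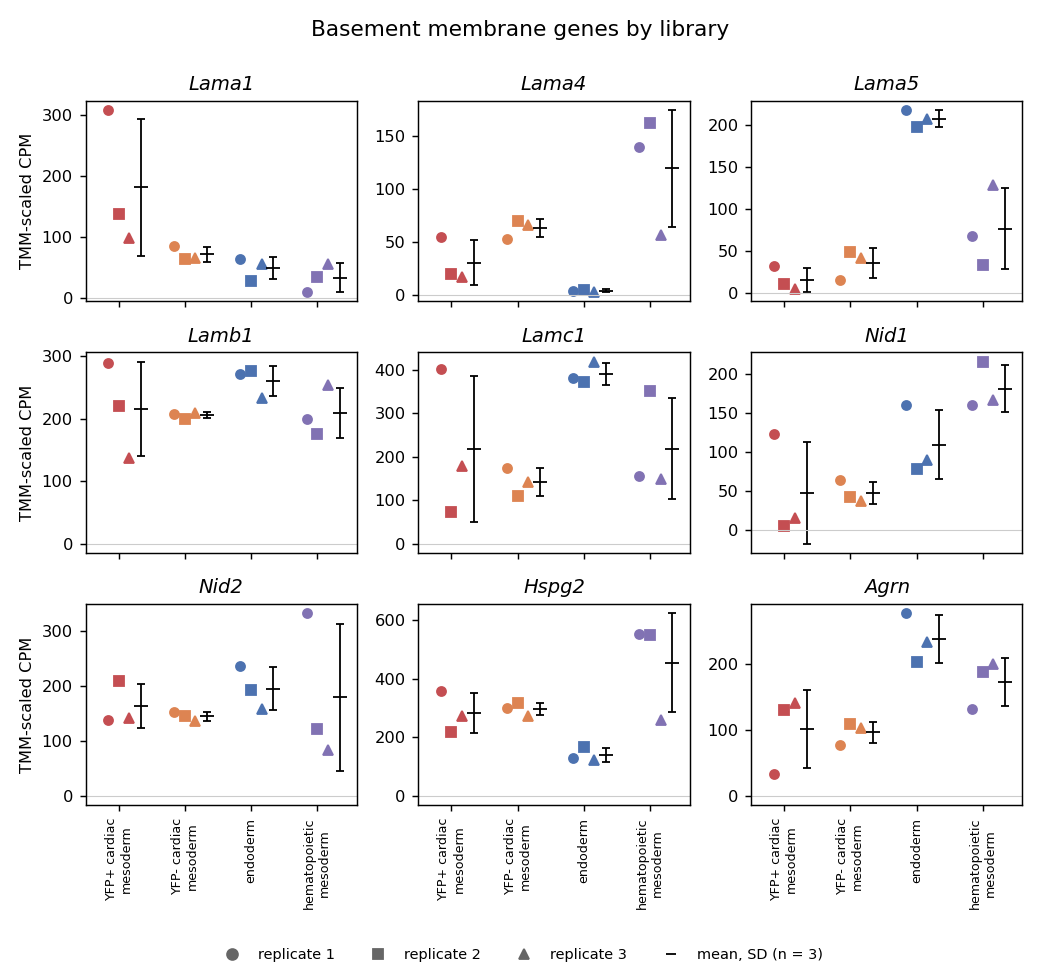
TMM-scaled CPM (vertical axes) of 9 basement membrane genes in every library, with replicates 1, 2 and 3 as circles, squares and triangles and the mean and SD of 3 libraries in black. Lama5 is highest and Lama4 and Hspg2 are lowest in endoderm, and YFP+ replicate 1 lies apart from its group for Lama1, Lamc1 and Nid1.

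Among the receptors, the integrin β1 subunit gene had the highest level per kilobase of exon in every type. β1 pairs with many alpha subunits to bind laminin, fibronectin and collagen. Itgb1 averaged 73.0, 81.5, 64.0 and 91.2 CPM per kilobase in YFP+ cardiac mesoderm, YFP- cardiac mesoderm, endoderm and hematopoietic mesoderm. In CPM it measured 324, 290 and 281 in YFP+ cardiac mesoderm, 379, 325 and 294 in YFP- cardiac mesoderm, 250, 235 and 298 in endoderm, and 403, 407 and 306 in hematopoietic mesoderm. All hematopoietic libraries lay above all endoderm ones (-0.51 ± 0.168 for endoderm minus hematopoietic mesoderm) with an adjusted p of 0.0863 in edgeR, and 0.0499 without hematopoietic replicate 3. The cardiac groups overlapped with every other group.

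Among the subunits that bind the arginine-glycine-aspartate sequence of fibronectin and related ligands, Itga8 was nearly missing from hematopoietic mesoderm. It encodes the partner of β1 that binds nephronectin (chromosome 2, 12106632 to 12301922, minus strand). It measured 67.85, 27.3 and 17.4 CPM in YFP+ cardiac mesoderm, 8.71, 61.8 and 36.65 CPM in YFP- cardiac mesoderm, 16.9, 20.2 and 11.9 CPM in endoderm, and 0, 1.04 and 0 CPM in hematopoietic mesoderm. The hematopoietic libraries held 0, 6 and 0 counts, so the fitted fold changes rest on 6 counts on that side. All 9 other libraries lay above all 3 hematopoietic ones. YFP+ cardiac mesoderm exceeded hematopoietic mesoderm by 6.58 ± 1.39 on the log2 scale (adjusted p in edgeR 0.0384). With the replicate number as a block the adjusted p in edgeR was 0.0547. The call was lost in edgeR without YFP+ replicate 1 (0.0731), YFP+ replicate 2 (0.0539), YFP+ replicate 3 (0.0506) or hematopoietic replicate 1 (0.0769), when only the 2 types were fitted (0.276) and in limma voom (0.222). Endoderm exceeded hematopoietic mesoderm by 5.38 ± 1.32 (adjusted p in edgeR 0.0358). That call was lost in edgeR without endoderm replicate 1 (0.0996), endoderm replicate 2 (0.109), endoderm replicate 3 (0.0910), hematopoietic replicate 1 (0.0807) or hematopoietic replicate 3 (0.0614), when only the 2 types were fitted (0.0917) and in limma voom (0.0809). YFP- cardiac mesoderm against hematopoietic mesoderm (6.51 ± 1.38) had an adjusted p of 0.0537 in edgeR, and 0.0207 without hematopoietic replicate 2. An antisense gene, E030013I19Rik, overlaps 5.05% of the Itga8 exon bases, and the strand setting of the counting is not given in the sources used here.

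Itga5, whose dimer with β1 is the main fibronectin receptor, measured 214, 123 and 152 CPM in YFP+ cardiac mesoderm, 141, 156 and 132 CPM in YFP- cardiac mesoderm, 146, 115 and 105 CPM in endoderm, and 45.0, 189 and 149 CPM in hematopoietic mesoderm. All groups overlapped and the smallest adjusted p in edgeR was 0.703. Itgav, whose product pairs with several beta subunits, measured 130, 166 and 152 CPM in YFP+ cardiac mesoderm, 107, 63.3 and 117 CPM in YFP- cardiac mesoderm, 80.6, 86.1 and 116 CPM in endoderm, and 192, 140 and 168 CPM in hematopoietic mesoderm. Its YFP+ cardiac and hematopoietic libraries lay above all libraries of the other 2 types, with a smallest adjusted p of 0.102 in edgeR for endoderm minus hematopoietic mesoderm (-0.82 ± 0.287), and 0.152 without hematopoietic replicate 3. Itgb5, a partner of αV, measured 66.8, 39.7 and 87.0 CPM in YFP+ cardiac mesoderm, 47.8, 66.4 and 35.6 CPM in YFP- cardiac mesoderm, 28.8, 28.4 and 18.7 CPM in endoderm, and 1.93, 26.1 and 1.47 CPM in hematopoietic mesoderm. Hematopoietic replicate 2 was at the endoderm level and the other 2 were far below it. Against hematopoietic mesoderm, Itgb5 in YFP+ cardiac mesoderm had a log2 fold change of 2.70 ± 0.946 with an adjusted p of 0.156 in edgeR. Without hematopoietic replicate 2 the adjusted p was 0.00626, and it was 0.0117 for YFP- cardiac mesoderm and 0.0104 for endoderm.

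The other beta partners of αV and the platelet integrin pair were restricted in level. Itgb3 and Itga2b encode the subunits of the fibrinogen receptor of megakaryocytes, which is also an early marker of hematopoietic progenitors. In hematopoietic replicates 1 and 2, Itgb3 measured 47.0 and 50.9 CPM and Itga2b 28.9 and 35.5 CPM. In replicate 3 they measured 3.36 and 6.09 CPM. Outside this type Itgb3 was at most 7.96 CPM and Itga2b at most 5.41 CPM. Neither was called in edgeR, with smallest adjusted p of 0.0955 and 0.184, and 0.0568 and 0.165 without replicate 3. For Itga2b, endoderm minus hematopoietic mesoderm was called in DESeq2 (0.0480) and limma voom (0.0139). YFP- cardiac minus hematopoietic mesoderm was called for it in DESeq2 (0.0154). The erythroid factor gene Gata1 was low in hematopoietic replicate 3, at 0.210 CPM against 74.2 and 46.6 CPM. It is in the list of 12 hematopoietic and endothelial genes, which also holds Itga2b. From that list, Hbb-bh1 and Pecam1 were low there too, at 0 and 0.210 CPM. Tal1 measured 270.5 CPM there against 471 and 356 CPM. Cdh5 was not low, at 145.5 CPM against 101 and 160 CPM. Itgb8, whose αV dimer activates TGF-β, measured 8.11, 3.88 and 14.7 CPM in endoderm and 0 in every hematopoietic library (adjusted p in edgeR 0.0527, and 0.103 without hematopoietic replicate 3). In cardiac mesoderm it was low as well, at most 0.370 CPM in the YFP+ and 0.981 CPM in the YFP- libraries. Itgb6 had 0 counts throughout.

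Of the laminin-binding subunits, Itga6 was the most abundant per kilobase. It encodes the α6 subunit, which pairs with β1 or β4. It measured 35.8, 28.8 and 65.0 CPM in YFP+ cardiac mesoderm, 65.3, 47.5 and 71.4 CPM in YFP- cardiac mesoderm, 77.0, 111 and 146 CPM in endoderm, and 38.1, 55.2 and 44.5 CPM in hematopoietic mesoderm. Every endoderm library exceeded every mesodermal one, with log2 fold changes of 1.27 ± 0.435 for endoderm minus hematopoietic mesoderm and -1.36 ± 0.435 for YFP+ cardiac mesoderm minus endoderm, at adjusted p of 0.0968 and 0.134 in edgeR. The first was 0.151 without hematopoietic replicate 3. DESeq2 called both (0.00661 and 0.00460), where it called 14.2% and 8.1% of all genes. Itga3, the α3 subunit of epithelial laminin receptors, measured 20.5, 17.5 and 22.8 CPM in endoderm and 26.9 CPM in hematopoietic replicate 3, and at most 9.25 CPM in the other 8 libraries. For YFP+ cardiac mesoderm minus endoderm, its adjusted p was 0.106 in edgeR, and 0.0151 when only these 2 types were fitted. It was 9.11e-04 in DESeq2 and 0.0215 in limma voom. Itgb4 stayed at or below 19.3 CPM and Itga7, the muscle laminin receptor subunit, at or below 20 counts.

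Itga9, whose dimer with β1 binds tenascin-C and osteopontin, measured 180, 86.9 and 29.4 CPM in YFP+ cardiac mesoderm, 54.6, 85.3 and 35.6 CPM in YFP- cardiac mesoderm, 49.9, 37.5 and 32.3 CPM in endoderm, and 158, 281 and 47.0 CPM in hematopoietic mesoderm. All groups overlapped. The smallest adjusted p in edgeR was 0.0930, for endoderm minus hematopoietic mesoderm (-2.02 ± 0.680), and it was 0.0415 without hematopoietic replicate 3. DESeq2 (0.034) and limma voom (0.0191) called this difference. Itga4, which binds fibronectin and the vascular adhesion molecule VCAM1, measured 34.9, 16.7 and 13.6 CPM in YFP- cardiac mesoderm and at most 16.4 CPM elsewhere, with a smallest adjusted p of 0.216 in edgeR (0.294 without hematopoietic replicate 3). That value was for YFP- cardiac minus hematopoietic mesoderm, which DESeq2 called (0.0245). Of the collagen-binding subunits, Itga1 and Itga10 reached 23.9 and 25.6 CPM in their highest libraries, and Itga2 and Itga11 reached 6 and 48 counts.

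Of the 7 leukocyte subunits, 2 passed the filter and 3 were not counted at all. Itgad, Itgax and Itgb2 had 0 counts in all 12 libraries, as had Ptprc, while other genes of its marker list were detected in every library. Itgal reached 25 counts in its highest library. Itgam reached 184 counts in hematopoietic replicate 1 and at most 3 in every other library, but 68.7% of its exon bases overlap the gene model Gm49368, and it did not pass the filter. Itgae and Itgb7 passed the filter, with highest values of 12.8 and 20.2 CPM, each in YFP+ replicate 3. Itga10 in YFP+ cardiac mesoderm and Itgb4 in YFP- cardiac mesoderm likewise ranged from at least 100 counts in 1 library to 3 or fewer in another of the same type, a pattern found in 9.3% and 3.48% of all genes that reached 100 counts there and in 15% in hematopoietic mesoderm.

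**Figure D4:**
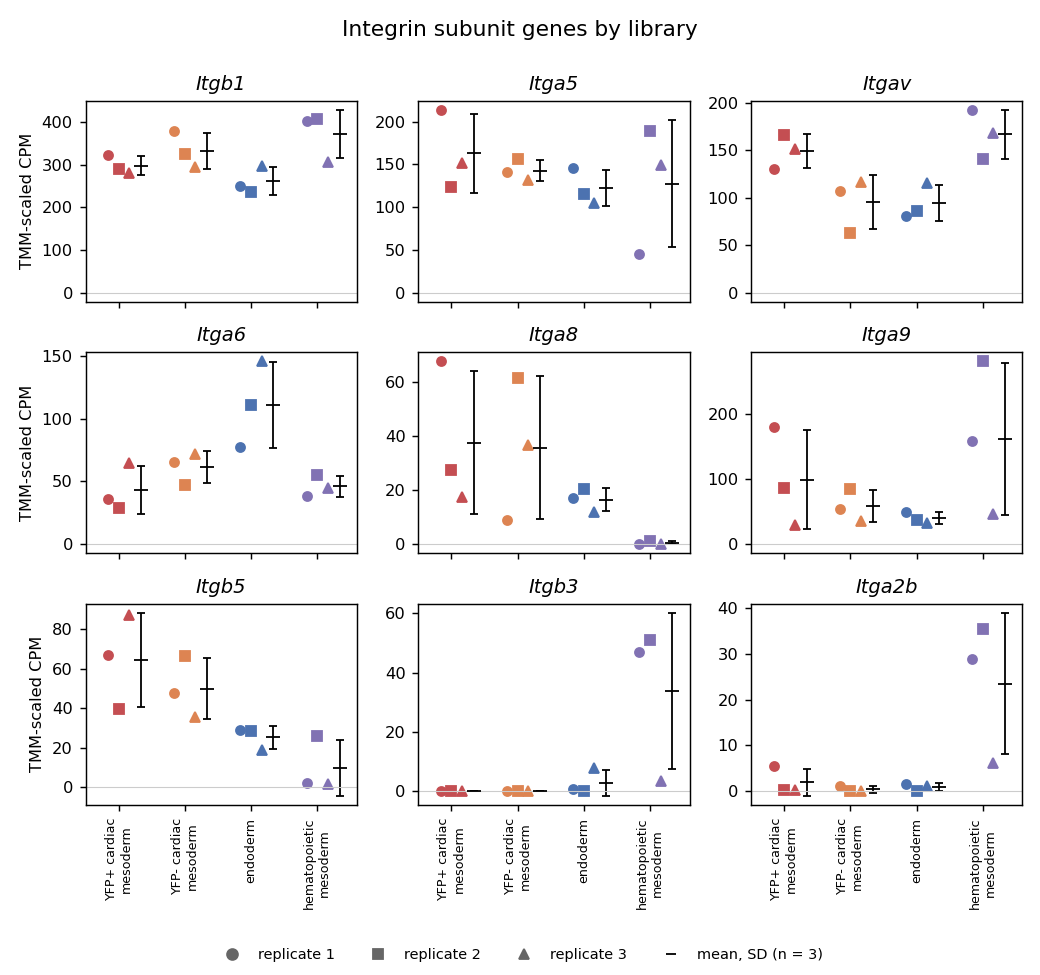
TMM-scaled CPM (vertical axes) of 9 integrin subunit genes in every library, with replicates 1, 2 and 3 as circles, squares and triangles and the mean and SD of 3 libraries in black. Itga8 is near 0 and Itgb3 and Itga2b are highest in hematopoietic mesoderm, where replicate 3 is low for Itgb3 and Itga2b.

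**Figure D5:**
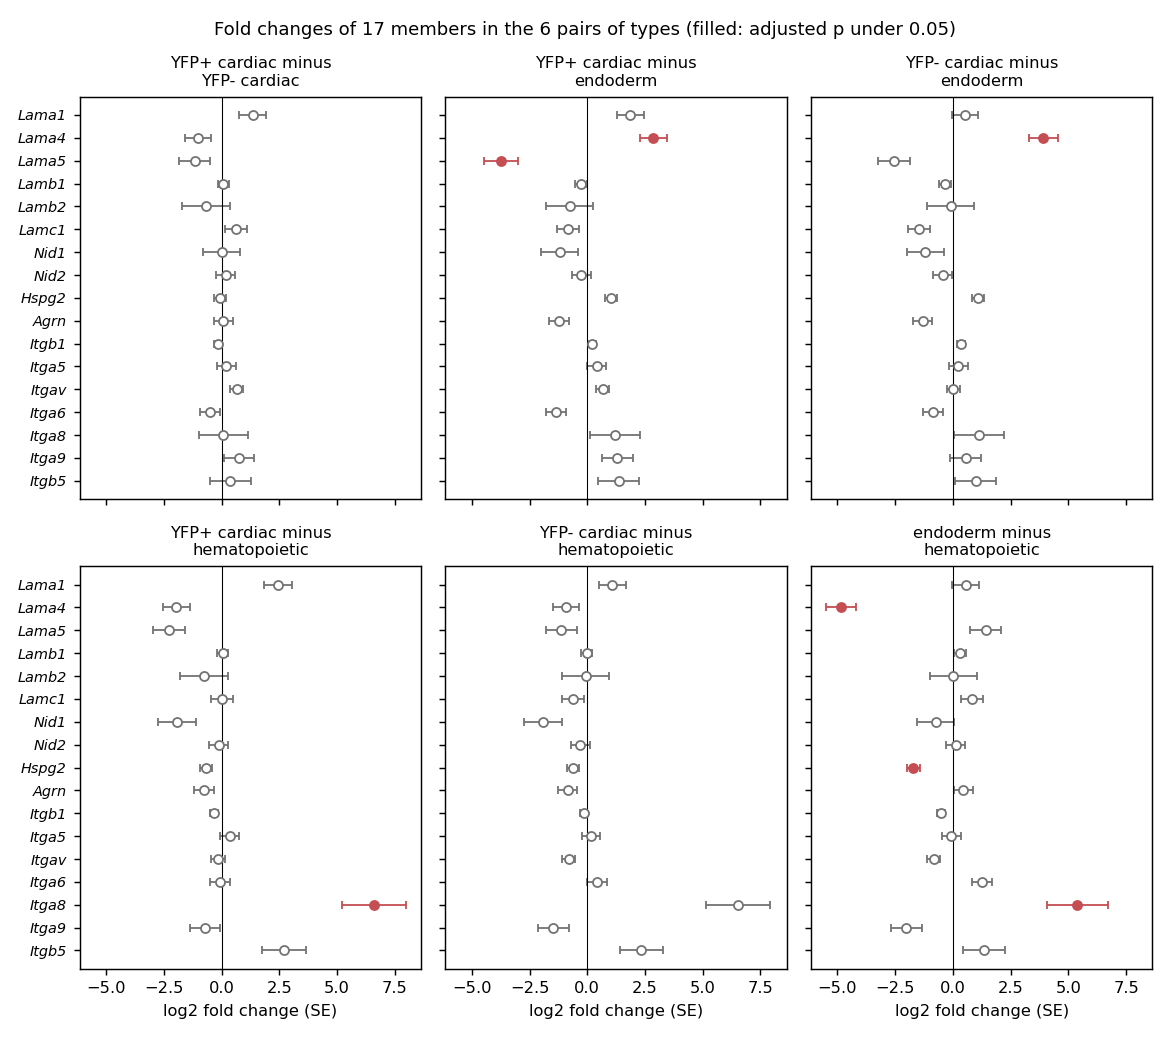
Log2 fold change and SE (horizontal axes) of the 17 members with full values in each of the 6 pairs of types; filled red points have an adjusted p under 0.05 in edgeR. The 7 filled points belong to Lama4, Lama5, Hspg2 and Itga8.

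The partners of the members outside the rule were read from lists of 103 genes in 6 groups, compiled from general knowledge, of which 85 were tested. In the order YFP+ against YFP- cardiac, YFP+ against endoderm, YFP- against endoderm, YFP+ against hematopoietic, YFP- against hematopoietic and endoderm against hematopoietic, 0, 2, 1, 3, 1 and 13 of them were called. These are 0%, 2.35%, 1.18%, 3.53%, 1.18% and 15.3% of the 85, where 0%, 1.54%, 1.31%, 1.79%, 0.593% and 5.65% of all genes were called. The counts other than the last lie near the background. The last was 2 to 8 when a library of either type was left out. Because the lists were chosen with earlier results of these data known, it is a description and was not tested against the background. Fn1 encodes fibronectin, the ligand of the dimers of Itga5 and Itgav. It had the smallest adjusted p of the related genes in each of its 3 calls. It measured 2041, 2049 and 2143 CPM in YFP+ cardiac mesoderm, 2032, 1855 and 1922 CPM in YFP- cardiac mesoderm, 728, 701 and 578 CPM in endoderm, and 2473, 2119 and 2389 CPM in hematopoietic mesoderm. Endoderm lay below every mesodermal library, with log2 fold changes of 1.64 ± 0.098 for YFP+ cardiac mesoderm, 1.53 ± 0.097 for YFP- cardiac mesoderm and -1.80 ± 0.098 for endoderm minus hematopoietic mesoderm, at adjusted p of 2.49e-06, 4.74e-06 and 8.03e-07 in edgeR. These 3 calls and that of Frem2 between endoderm and hematopoietic mesoderm were the 4 of 20 that held when any library was left out.

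Of the basement membrane components outside the rule, 3 of 19 tested were called between endoderm and hematopoietic mesoderm, all higher in endoderm, where 3.23% of all genes were. Frem2 and Fras1 encode proteins of a complex that anchors epithelial basement membranes, and Npnt encodes nephronectin, the ligand of the Itga8 dimer. Frem2 measured 124, 104 and 107 CPM in endoderm and 0, 0.866 and 0.420 CPM in hematopoietic mesoderm (adjusted p in edgeR 0.00171). In the cardiac libraries it measured 11.7, 16.4 and 2.78 CPM (YFP+) and 27.0, 43.6 and 11.4 CPM (YFP-), and both types were called above hematopoietic mesoderm (adjusted p 0.0426 and 0.0283 in edgeR). The YFP+ call was lost in 4 and the YFP- call in 2 of 6 fits that left out a library, with adjusted p up to 0.0786 and 0.0927, and the YFP+ call with the replicate block (0.0634). Fras1 measured 100, 45.1 and 61.6 CPM and Npnt 6.84, 10.6 and 15.4 CPM in endoderm, against at most 0.210 and 0 CPM in hematopoietic mesoderm. Their adjusted p in edgeR were 0.0380 and 0.0335, and both calls were lost in all 6 such fits. With the replicate block the adjusted p of Npnt was 0.0687. The epiblast and visceral endoderm marker genes also had their highest sums in endoderm, and their part in these levels was not tested. In the cardiac libraries Fras1 measured 0.416, 68.7 and 3.33 CPM (YFP+) and 0, 3.78 and 16.4 CPM (YFP-). Npnt was at most 0.185 CPM in the cardiac libraries, all of which held Itga8 counts.

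Of the collagen IV chains, which form the other network of the basement membrane, 2 were well counted. Col4a1 measured 268, 251 and 149 CPM in YFP+ cardiac mesoderm, 146, 127 and 137 CPM in YFP- cardiac mesoderm, 241, 144 and 165 CPM in endoderm, and 178, 267 and 179 CPM in hematopoietic mesoderm. Col4a2, which is transcribed from the same locus, measured 209, 86.0 and 64.6 CPM, 66.2, 98.4 and 121 CPM, 115, 76.0 and 91.4 CPM, and 212, 176 and 173 CPM in the same order of types. Neither was called in any pair, with smallest adjusted p of 0.276 and 0.156 in edgeR. Col4a3 and Col4a4 reached 19.5 and 0.636 CPM at most, and Col4a5 and Col4a6 reached 26.3 and 37.5 CPM.

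Of the other integrin ligands, 3 of 10 tested were lower in endoderm than in hematopoietic mesoderm, where 2.42% of all genes were: Fn1, Fbn1 and Tnc. Fbn1, the gene of the microfibril protein fibrillin, measured 345, 202 and 137 CPM in hematopoietic mesoderm and 2.23, 13.5 and 7.61 CPM in endoderm (-4.87 ± 0.885, adjusted p in edgeR 0.00894, and 0.0623 without endoderm replicate 3). Tnc, the gene of tenascin-C, measured 110, 113 and 43.5 CPM in YFP+ cardiac mesoderm, 9.05, 8.55 and 4.34 CPM in YFP- cardiac mesoderm, and at most 0.475 CPM in endoderm. The YFP+ libraries did not overlap with the YFP- ones, and that difference was not called. Tnc in hematopoietic mesoderm measured 0.723, 1.91 and 81.7 CPM, so its call against endoderm (adjusted p in edgeR 0.0396) rested on replicate 3, without which it was 0.201. It was also lost without endoderm replicate 1 (0.141), endoderm replicate 2 (0.143) or endoderm replicate 3 (0.135), and with the replicate block (0.104). The call of YFP+ cardiac mesoderm over endoderm (adjusted p 0.0379) was lost in all 6 fits that left out a library, with adjusted p up to 0.200, and with the block (0.0554).

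Among 28 tested integrin adaptors and partners, 6 were called between endoderm and hematopoietic mesoderm, where 5.65% of all genes were. Fermt1, the kindlin of epithelia, Tln2, a talin that activates integrins, and Tns3, a tensin, were higher in endoderm. Actn1, an actin cross-linker, Bcar1, an adhesion scaffold, and Ptk2, the focal adhesion kinase, were higher in hematopoietic mesoderm. Fermt1 measured 76.8, 64.3 and 113 CPM in endoderm and 0.241, 0 and 0.630 CPM in hematopoietic mesoderm. Tln2 measured 192, 197 and 168 CPM against 29.9, 108 and 56.9 CPM, and Ptk2 measured 119, 141 and 176 CPM against 255, 248 and 317 CPM. In the cardiac libraries Fermt1 measured 1.25, 3.10 and 15.2 CPM (YFP+) and 0, 65.9 and 76.6 CPM (YFP-). The 6 adjusted p in edgeR lay between 0.0283 and 0.0498, and each call was lost in 4 to 6 of the 6 fits that left out a library. The calls of Actn1, Bcar1 and Tns3 were also lost with the replicate block (0.0510, 0.0802 and 0.0627). Between YFP+ cardiac and hematopoietic mesoderm, Tln2 was higher (151, 297 and 230 CPM) and Actn1 lower (126, 173 and 150 CPM against 288, 290 and 248 CPM), at adjusted p of 0.0426 and 0.0481 in edgeR, and these were lost in 4 and 5 such fits. With the block, that of Actn1 was 0.0831.

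Of the remaining lists, 1 gene was called. Adamts9, a secreted protease of proteoglycans, was higher in endoderm (230, 347 and 404 CPM) than in hematopoietic mesoderm (42.9, 82.4 and 167 CPM), with an adjusted p of 0.0286 in edgeR that was lost in 5 of 6 fits that left out a library. It was the only 1 of 10 tested matrix proteases and inhibitors called in that pair, where 5.65% of all genes were. Over the 6 pairs, edgeR made 0 calls among the 7 non-integrin laminin receptors and 0 among the 11 dystroglycan glycosylation genes. It called 0% to 5.65% of all genes in a pair. The 2 lists held 3 and 4 values at an unadjusted p under 0.05, where 7.49% to 22.8% of all genes stood in a pair. DESeq2 made 1 and 2 calls, and limma voom 1 and 1. These tools called 1.62% to 14.2% and 0% to 12.8% of all genes in a pair. Dag1, which encodes dystroglycan, measured 245, 211 and 222 CPM in endoderm and 103 to 200 CPM in the other types, with a smallest adjusted p of 0.191 in edgeR.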

How the data were processed

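RNA was purified and amplified with low-input kits, per the labels' protocols. The authors deposited raw read counts per gene for each library. The submitters' processing notes name STAR 2.5.0a, Picard, HTSeq 0.6.0, DESeq2 and build mm10; strand setting and annotation release are not given in the sources used here. Rows for reads outside genes were left out; genes took 18.3% to 21.5% of all rows' counts. Symbols were found for 37607 of 38924 Ensembl identifiers. edgeR 4.0.16 (R 4.3.3; TMM, filterByExpr, 8 residual degrees of freedom) was fitted to all 12 libraries, 1 coefficient per type; the SE is the log2 fold change over the root of F. Exon lengths came from GENCODE M21 (GRCm38). Scripts were tested on simulated data. Deposited file names carry a date shared by same-numbered libraries, which was taken as pairing; deviations of same-numbered libraries correlated by 0.00791 to 0.0262 on average. Full values are given for members called, at 50 CPM or more in a type, or basement membrane genes at 10 CPM or more. Related genes named are the first 5 called in each direction and collagen IV; Fras1, Bcar1 and Dag1 were added after their values were seen. Members and lists were chosen with earlier results of these data known, and 1 member is not reported here. Alternatives were DESeq2 1.42.0, limma voom (3.58.1) with quality weights, other scaling and filters, a replicate block, 2-type fits and leaving out each library.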

Additional observations from a re-analysis of the deposited data

How the results depend on the processing

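No called member or related gene changed direction under any alternative run. Each count of called members or related genes is given in the order YFP+ against YFP- cardiac, YFP+ against endoderm, YFP- against endoderm, YFP+ against hematopoietic, YFP- against hematopoietic, endoderm against hematopoietic. With edgeR it was 0, 2, 1, 1, 0 and 3 members and 0, 2, 1, 3, 1 and 13 related genes. DESeq2 gave 0, 7, 4, 8, 5 and 8 members and 1, 7, 6, 15, 8 and 22 related genes, where it called 1.62%, 8.1%, 5.05%, 12.8%, 9.29% and 14.2% of all genes. limma voom with quality weights gave 7, 7, 0 and 7 members for the second, the third, the fourth and the last pair, and 10, 19 and 0 related genes for the second to the fourth; its shares of all genes were 7.97%, 12.8%, 0.127% and 8.65% for the second, the third, the fourth and the last. Fitting only the 2 types compared gave 5 and 0 members for the third and the fourth pair, and 9, 14, 0 and 0 related genes for the second to the fifth, where it called 8.28%, 10.1%, 0.121% and 0.0874% of all genes. With no filter on low counts there were 3, 2 and 2 members for the third to the fifth pair, and 5 and 2 related genes for the fourth and the fifth; a minimum mean of 5 CPM gave 1 member for the fifth. Fitting the replicate number as a block gave 1 and 0 members for the second and the fourth pair, and 1 and 8 related genes for the second and the last. The block called 1.26%, 0.939% and 3.85% of all genes for the second, the fourth and the last. In the fourth pair the related calls of Frem2 and Actn1 were also lost with the block. Among members, no other call changed with this pairing. Leaving out each library in turn gave 0 to 0, 0 to 2, 0 to 1, 0 to 4, 0 to 2 and 2 to 4 members, and 0 to 0, 1 to 1, 1 to 1, 0 to 6, 0 to 2 and 2 to 8 related genes. The higher counts of 4 members came without hematopoietic replicate 2 or 3. The shares of all genes called are not given for the fits that left out a library or changed the filter. Those counts thus do not show whether members changed more than other genes. The cause of the differences between fits was not tested. Laminin alpha shares without division by exon length, an alternative chosen after seeing the data, gave Lama1 79.2% in YFP+ cardiac mesoderm and kept the order of the 3 chains in each type. With 3 libraries a type, an exact permutation test over samples could not go below 0.10, and low members rest on few counts.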
